A study of Mus musculus with 19 samples.

Results

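RNA-seq values of *Ache*, which encodes acetylcholinesterase, and of 7 genes of the muscle side of the neuromuscular junction were followed in 19 mouse libraries. The 8 genes were *Ache*, the acetylcholine receptor subunit genes *Chrna1*, *Chrnb1*, *Chrnd*, *Chrne* and *Chrng*, the receptor kinase gene *Musk* and the scaffold gene *Rapsn*. They were found by symbol among the 46078 genes of the table, and all 8 had an entry. *Ache* is among the genes the study named for its difference between glands of NP and N mice, so every value that involves the MGNP glands is given here as a description with no test. The question followed was whether *Ache* moved with the other junction genes across groups and single glands.

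At the neuromuscular junction, acetylcholine released by the motor nerve opens a pentameric channel in the muscle membrane, and acetylcholinesterase in the cleft ends the signal by splitting acetylcholine. The channel of fetal and denervated muscle holds a gamma subunit, which an epsilon subunit replaces in innervated adult muscle, while the alpha1, beta1 and delta subunits are shared by both forms. Agrin from the nerve binds LRP4, which activates the kinase MuSK, and rapsyn then gathers the receptors under the nerve ending. Acetylcholinesterase is also made outside muscle, in neurons and in cells of the red cell and platelet lineages.

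The 3 MGWT glands came from wild type mice matched for age. The 4 MGN and 4 MGNP glands were taken from tumor-bearing mice, from glands without a malignant lesion, and the 4 TN and 4 TNP samples were mammary tumors. By the sample records, MGN replicate 1 and all TN tumors were MMTV-neu;Fsp-Cre, MGN replicates 2, 3 and 4 were MMTV-neu;p53wm-R172H/+ without Cre, and all MGNP and TNP samples were MMTV-neu;p53wm-R172H/+;Fsp-Cre. All N and NP mice thus carried neu, which the MMTV promoter drives in mammary epithelium. Fsp-Cre is meant to recombine in fibroblasts, where it turns the conditional allele into mutant p53 R172H, and the mice had a mixed FVB/C57/BALB/c background. The library names of TNP replicates 1 and 2 share an animal number. The records call the samples replicates without saying that each came from its own animal, so the p-values below measure the spread between these samples.

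Values are read counts per gene divided by a size factor of each library, called normalized counts here. Reads on genes numbered 20899152 to 27262440 in the 16 libraries of N and NP mice and 54677315 to 62645459 in MGWT, so depth and the wild type group cannot be told apart. A list of 22 skeletal muscle markers took up 0.00550% to 0.00845% of the normalized counts in MGWT, 0.0188% to 0.193% in MGN, 0.00276% to 0.204% in TN and 0.00277% to 0.0461% in TNP. In MGNP it took up 3.63%, 19.7%, 0.131% and 11.3% in replicates 1 to 4, so MGNP replicates 1, 2 and 4 stood apart from every other library. The sample titles call the MGWT samples mammary gland and do not say how much fat was included. The summed count of 7 white adipocyte markers was 921 to 1446 in MGWT and 196957 to 261911 in MGN. In bulk tissue, fewer cells of a type and less RNA per cell cannot be told apart.

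The 300-base RefSeq promoters (GRCm38.p6, 250 bases before the start site and 50 after) are shown for the 5 genes on which the results turn, to set the *Ache* start region beside those of genes that are transcribed in muscle. Capitals mark the E-box CAGCTG, a core bound by myogenic factors such as MyoD and myogenin, and CCGGAA or its reverse complement, the core bound by ETS factors such as GABP. Each motif was searched on both strands, and the 2 motifs did not overlap in any promoter shown. *Ache* lies on the plus strand at chr5:137288004-137288303, *Chrna1* on the minus strand at chr2:73580289-73580588, *Chrnb1* on the minus strand at chr11:69795888-69796187, *Chrne* on the minus strand at chr11:70619145-70619444 and *Musk* on the plus strand at chr4:58285712-58286011.
Ache: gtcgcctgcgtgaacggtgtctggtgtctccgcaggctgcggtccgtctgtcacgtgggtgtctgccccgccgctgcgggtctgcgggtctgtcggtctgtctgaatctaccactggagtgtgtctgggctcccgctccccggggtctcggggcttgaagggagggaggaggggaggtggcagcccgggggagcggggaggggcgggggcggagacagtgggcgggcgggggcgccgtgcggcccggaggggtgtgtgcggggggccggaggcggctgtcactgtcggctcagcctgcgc
Chrna1: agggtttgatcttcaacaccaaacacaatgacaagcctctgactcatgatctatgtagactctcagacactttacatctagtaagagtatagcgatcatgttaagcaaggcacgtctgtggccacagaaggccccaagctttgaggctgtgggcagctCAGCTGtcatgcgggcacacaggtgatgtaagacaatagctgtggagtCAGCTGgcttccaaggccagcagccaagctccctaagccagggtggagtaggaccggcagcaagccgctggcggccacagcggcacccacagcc
Chrnb1: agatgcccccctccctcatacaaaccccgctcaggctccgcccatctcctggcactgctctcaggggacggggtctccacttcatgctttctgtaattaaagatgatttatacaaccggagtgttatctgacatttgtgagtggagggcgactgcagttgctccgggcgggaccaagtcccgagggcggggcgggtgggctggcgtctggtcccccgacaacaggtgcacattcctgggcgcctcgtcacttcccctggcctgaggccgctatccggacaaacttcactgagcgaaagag
Chrne: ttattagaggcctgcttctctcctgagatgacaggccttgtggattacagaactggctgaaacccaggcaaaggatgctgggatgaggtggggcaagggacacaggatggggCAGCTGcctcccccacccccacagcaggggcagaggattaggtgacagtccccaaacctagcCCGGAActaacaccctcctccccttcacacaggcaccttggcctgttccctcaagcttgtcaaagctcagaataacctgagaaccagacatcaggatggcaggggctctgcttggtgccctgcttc
Musk: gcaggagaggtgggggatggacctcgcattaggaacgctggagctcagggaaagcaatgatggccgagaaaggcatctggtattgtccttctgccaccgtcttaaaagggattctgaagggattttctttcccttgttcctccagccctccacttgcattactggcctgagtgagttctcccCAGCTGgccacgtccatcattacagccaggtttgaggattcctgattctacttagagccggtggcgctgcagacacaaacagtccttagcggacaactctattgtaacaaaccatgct

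CAGCTG occurred 2 times in the *Chrna1* window, 2 times in that of *Chrng*, 1 time each in those of *Chrne* and *Musk*, and 0 times in those of *Ache* and *Chrnb1*. Of 32851 promoters of the same length, 16.3% held it. The looser E-box CANNTG, which includes CAGCTG, was present in all 6 windows examined and in 72.3% of all promoters. CCGGAA on either strand was present in the *Chrne* window alone of the 6, and in 14.9% of all promoters. The *Ache* window was 74.0% G and C, against 52.0% to 60.0% in the other 5 windows and a median of 52.7% over all promoters. These matches describe letters in a window. *Chrnd* and *Rapsn* were not among the 6 matched entries.

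Among the 5 groups, *Ache* (ENSMUSG00000023328, chromosome 5, 137287519 to 137294466 of GRCm38, plus strand, protein coding) was highest in the wild type glands and lowest in the tumors. The MGWT glands had 165, 363 and 441 normalized counts in replicates 1 to 3. The MGNP glands had 189.8, 307, 123 and 235 in replicates 1 to 4, and the MGN glands 39.5, 65.5, 30.1 and 62.8. The TN tumors had 18.2, 30.6, 22.2 and 21.01, and the TNP tumors 34.8, 7.32, 6.49 and 6.24. Every MGWT and MGNP gland was thus above every MGN gland and every tumor. The means were 323 ± 143 in MGWT (SD, n = 3), 214 ± 77.1 in MGNP (SD, n = 4), 49.5 ± 17.4 in MGN (SD, n = 4), 23.0 ± 5.32 in TN (SD, n = 4) and 13.7 ± 14.0 in TNP (SD, n = 4). In that order MGWT overlapped MGNP, MGN overlapped TN by a single tumor and gland, and TN overlapped TNP, while MGNP and MGN did not overlap. TNP replicate 1 stood well above the other 3 TNP tumors. These levels rest on 386 to 854 reads per MGWT gland, 31 to 61 per MGN gland, 114 to 215 per MGNP gland, 16 to 29 per TN tumor and 5 to 31 per TNP tumor. MGN replicate 1, which carried Cre and no conditional allele, lay between the other MGN glands. The exons of *Ache* overlap the antisense gene *Gm42456*, which reached at most 4.28 normalized counts in any library, and the strand setting of the counting is not given in the sources used here.

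**Figure D1:**
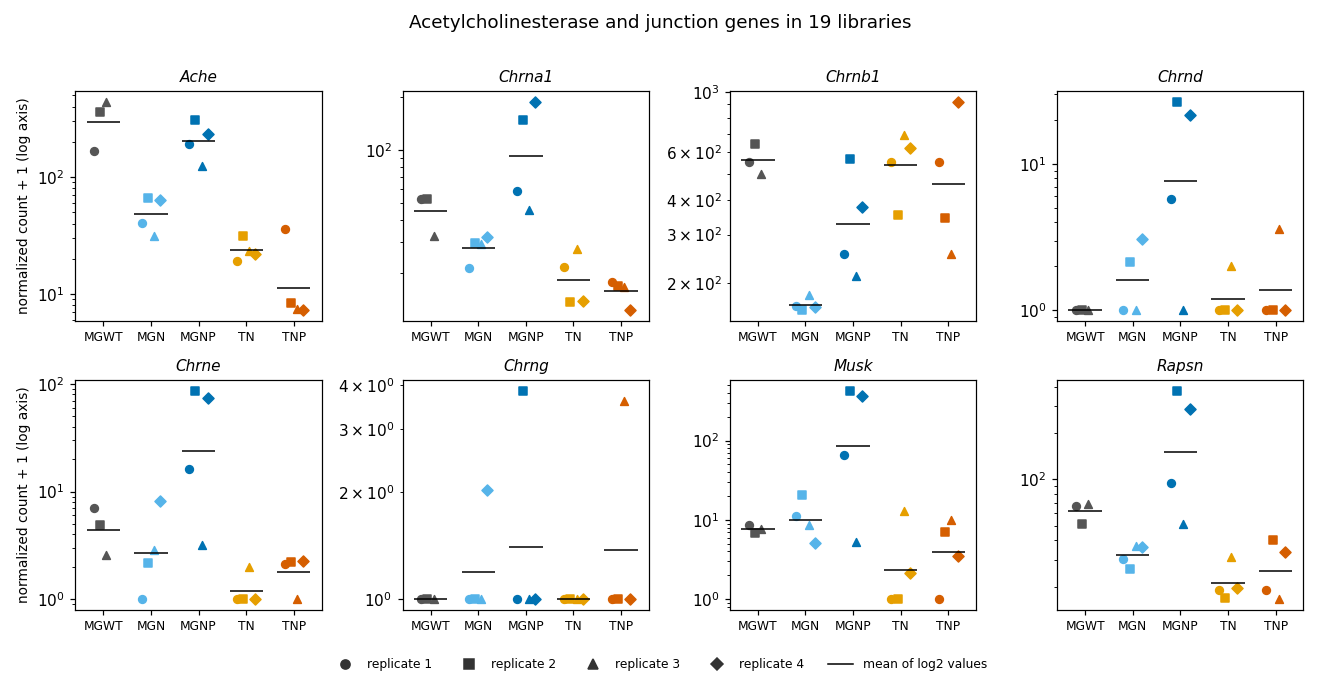
Normalized counts plus 1 (log axis) of the 8 genes in each library, by group, with replicates 1 to 4 as separate symbols and a line at the mean of the log2 values. *Ache* stood at 165 to 441 normalized counts in MGWT and 30.1 to 65.5 in MGN, while *Musk* stood at 5.86 to 7.68 in MGWT and 4.12 to 19.5 in MGN.

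The subunits shared by both receptor forms were read in every group, except *Chrnd*. *Chrna1* (ENSMUSG00000027107, chromosome 2, 73563215 to 73580338, minus strand), the subunit that carries most of the acetylcholine binding site, had 51.6, 51.3 and 31.5 normalized counts in MGWT. It had 20.4, 28.7, 28.2 and 30.9 in MGN and 57.2, 147, 44.4 and 187 in MGNP. In TN it had 20.5, 12.6, 26.3 and 12.8, and in TNP 16.8, 15.9, 15.6 and 11.2. All MGWT and MGNP values were above all MGN values, and MGWT overlapped MGNP. The mean was 44.8 ± 11.5 in MGWT (SD, n = 3), 27.0 ± 4.60 in MGN (SD, n = 4), 109 ± 69.3 in MGNP (SD, n = 4), 18.0 ± 6.57 in TN (SD, n = 4) and 14.9 ± 2.48 in TNP (SD, n = 4).

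*Chrnb1* (ENSMUSG00000041189, chromosome 11, 69784036 to 69795943, minus strand) encodes the beta1 subunit, which rapsyn contacts. Its normalized counts were 552, 645 and 499 in MGWT, 163, 157, 179 and 162 in MGN, and 255, 568, 210.1 and 377 in MGNP. The tumors had 551, 352, 692 and 619.7 in TN and 554, 344, 253 and 919 in TNP. It differed from *Ache* in the tumors, where it was above every MGN gland in all 8 samples, whereas *Ache* was below every MGN gland in 6 of the 8 tumors and just inside the MGN range in TN replicate 2 and TNP replicate 1. Its group means were 565 ± 73.7 in MGWT (SD, n = 3), 165 ± 9.62 in MGN (SD, n = 4), 352 ± 160.1 in MGNP (SD, n = 4), 554 ± 146 in TN (SD, n = 4) and 518 ± 296 in TNP (SD, n = 4).

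The delta, epsilon and gamma subunits were near the detection floor outside 3 MGNP glands. *Chrnd* (ENSMUSG00000026251, chromosome 1, 87190607 to 87200070, plus strand) had 4.77, 25.7, 0 and 20.7 normalized counts in MGNP replicates 1 to 4. It had 0 reads in all 3 MGWT glands, at most 2 reads in any MGN gland, 1 in any TN tumor and 2 in any TNP tumor. *Chrne* (ENSMUSG00000014609, chromosome 11, 70614883 to 70619216, minus strand), the adult subunit, had 15.3, 85.6, 2.17 and 73.6 normalized counts in MGNP. It had 5.97, 3.90 and 1.55 in MGWT, 0, 1.15, 1.88 and 7.21 in MGN, and at most 1.25 in any tumor. MGNP replicate 3 thus had no more of either transcript than an MGN gland. *Chrng* (ENSMUSG00000026253, chromosome 1, 87204657 to 87212694, plus strand), the fetal subunit, was read in 3 of 19 libraries with at most 2 reads, which sets no level above the floor of 3 reads per library used here.

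*Musk* (ENSMUSG00000057280, chromosome 4, 58285960 to 58374303, plus strand), the kinase that starts receptor clustering, had 64.9, 424, 4.33 and 360.3 normalized counts in MGNP replicates 1 to 4. It had 7.68, 5.86 and 6.72 in MGWT and 10.2, 19.5, 7.51 and 4.12 in MGN. The tumors had 0, 0, 12.1 and 1.17 in TN and 0, 6.10, 9.09 and 2.497 in TNP. MGNP replicates 1, 2 and 4 were above all other libraries, and replicate 3, with 4 reads, was beside the lowest MGN gland. Over groups, the mean was 6.75 ± 0.910 in MGWT (SD, n = 3), 10.3 ± 6.62 in MGN (SD, n = 4) and 213 ± 209.5 in MGNP (SD, n = 4).

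*Rapsn* (ENSMUSG00000002104, chromosome 2, 91035620 to 91045729, plus strand) encodes rapsyn, which binds the receptors from inside the cell. It had 66.1, 49.8 and 68.2 normalized counts in MGWT, 29.3, 25.3, 35.7 and 35.02 in MGN, and 93.5, 375, 49.8 and 287 in MGNP. The tumors had 18.2, 15.8, 30.3 and 18.7 in TN and 17.9, 39.0, 15.6 and 32.5 in TNP. As with *Ache* and *Chrna1*, every MGWT and MGNP gland was above every MGN gland. The mean was 61.4 ± 10.1 in MGWT (SD, n = 3), 31.3 ± 4.94 in MGN (SD, n = 4), 201.3 ± 155 in MGNP (SD, n = 4), 20.7 ± 6.49 in TN (SD, n = 4) and 26.3 ± 11.3 in TNP (SD, n = 4). Its exons overlap those of the antisense gene *Gm13778*, which had 3.66 to 15.5 normalized counts.

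Per kilobase of exon, the order of the genes differed between groups. In MGWT the mean level per kilobase was 223 normalized counts for *Chrnb1*, 69.8 for *Ache*, 34.1 for *Rapsn*, 10.2 for *Chrna1*, 2.25 for *Chrne* and 1.79 for *Musk*. In MGNP it was 139 for *Chrnb1*, 112 for *Rapsn*, 56.5 for *Musk*, 46.2 for *Ache*, 26.1 for *Chrne* and 24.8 for *Chrna1*. In both groups *Chrnb1* had the highest mean level per kilobase of the 8. *Ache* came next in MGWT and behind *Rapsn* and *Musk* in MGNP, where the single glands of *Rapsn*, *Musk*, *Ache*, *Chrne* and *Chrna1* overlapped and the SD per kilobase was 86.1 for *Rapsn*, 55.5 for *Musk* and 16.7 for *Ache*.

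Glands of neu mice were first compared with wild type glands. *Ache*, *Chrnb1*, *Chrna1* and *Rapsn* passed the filter on low values, which asked for at least 10 normalized counts in at least 3 samples, and each of them had all 4 MGN values below all 3 MGWT values. *Ache* was lower in MGN by the largest amount of the 4, with a log2 difference of -2.64 (SE 0.41, adjusted p = 0.000853 by limma), and *Chrnb1* was lower with -1.76 (SE 0.15, adjusted p = 3.56e-05 by limma). Both were called, at an adjusted p under 0.05 and at least a 2-fold change. *Rapsn* differed by -0.95 (SE 0.25, adjusted p = 0.0116 by limma), short of 2-fold, and *Chrna1* by -0.69 (SE 0.29, adjusted p = 0.0709 by limma). The two-sided exact permutation test gave p = 0.0286 for each of the 4, the smallest value that 3 samples against 4 allow. Of the 19017 genes tested, 17.9% were called lower and 29.8% were lower without overlap, beside 2 and 4 of the 4 genes tested here, which the filter had already picked by their level. The MGN glands are also the lower side of the comparison from which *Ache* was chosen. *Musk*, *Chrne*, *Chrnd* and *Chrng* did not pass the filter, and their groups overlapped.

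Marker lists of cell types were set beside this comparison. The summed count of the 22 skeletal muscle markers was 1470 to 2256 in MGWT and 4530 to 50490.0 in MGN. Much of the MGWT sum was *Ttn*, at 646, 1505 and 940 in replicates 1 to 3. *Myh4*, the fast IIb myosin, stood at 2.13 to 7.75 in MGWT, and *Ckm*, the muscle creatine kinase, at 1.46 to 2.99. The red cell list was also lower in MGWT, with a sum of 73.9 to 93.8 over 7 genes against 16960 to 28197 in MGN. The sum of 5 megakaryocyte markers was 268 to 355 in MGWT and 690.3 to 1426 in MGN. That of 6 neuron markers was 77.6 to 122 in MGWT and 231 to 399 in MGN. Single genes carried much of both sums: *Pf4* was 8.96 to 14.6 in MGWT and 434 to 1029 in MGN, and *Syp* 38.8 to 85.4 and 203 to 308. *Ppbp* and *Gp9*, at low counts, were also higher in MGN. *Itga2b* (248 to 329 in MGWT, 177 to 339 in MGN), *Gp1bb* and the other neuron markers overlapped. The higher megakaryocyte and neuron sums of MGN thus came from only part of the genes of each list. Other lists were lower in MGN without overlap, as *Ache* was. The sum of 7 luminal epithelium markers was 73974 to 88551 in MGWT and 16535 to 29159 in MGN, that of 5 smooth muscle and myoepithelium markers was 42211 to 52584 and 7055 to 19329, and that of 6 Schwann cell and myelin markers was 7688 to 9324 and 2350 to 3334. The part of these lists in the difference was not tested.

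**Figure D2:**
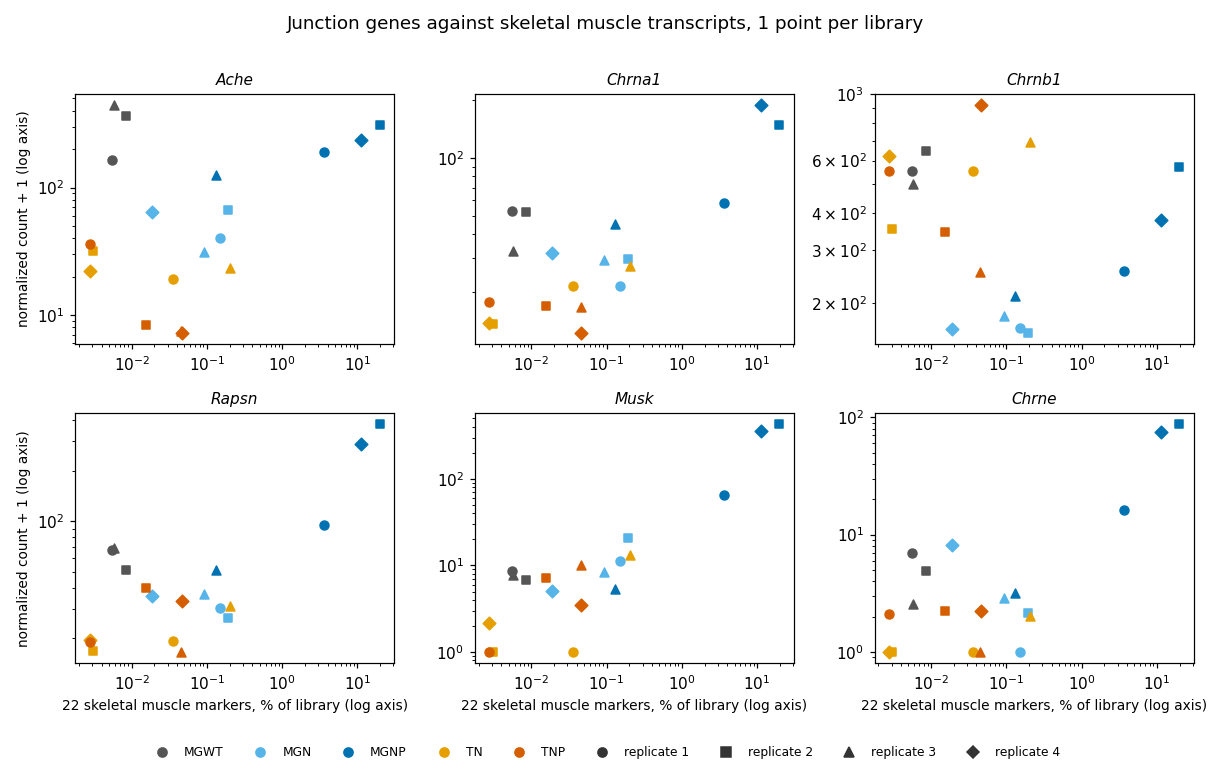
Normalized count plus 1 of 6 genes against the share of each library taken by 22 skeletal muscle markers, both on log axes, with 1 point per library, colored by group. The 3 MGWT glands hold *Ache* at 165 to 441 with 0.00550% to 0.00845% of muscle transcripts, whereas *Musk* is at 64.9 to 424 in the 3 MGNP glands with 3.63% to 19.7% and at most 19.5 in the other libraries.

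Between MGNP and MGN glands, 4 of the 8 genes had all 4 MGNP values above all 4 MGN values. These were *Ache*, with a log2 difference of 2.08 and means of 214 and 49.5, *Rapsn* with 2.24, *Chrna1* with 1.74 and *Chrnb1* with 0.98. *Musk*, the other gene that passed the filter, had a log2 difference of 3.10 with overlapping groups. Over the 18563 genes that passed, 2.06% were higher in MGNP without overlap. *Chrne* differed by 3.17 and overlapped, and *Chrnd* had 39 reads over the 4 MGNP glands and 3 over the 4 MGN glands. Since *Ache* was chosen from this contrast and the muscle list differed in it as well, these differences are given as values only.

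Values are given next for MGNP replicate 3, the MGNP gland with the fewest muscle transcripts. That *Ache*, *Chrna1*, *Chrnb1* and *Rapsn* exceeded MGN in this single gland follows from the lack of overlap given above. In MGNP replicate 3, where the muscle list took up 0.131% of the library and thus lay within the MGN range of 0.0188% to 0.193%, *Ache* had 123 normalized counts against a highest MGN value of 65.5. *Chrna1* had 44.4 against 30.9, *Chrnb1* 210.1 against 179 and *Rapsn* 49.8 against 35.7. In the same gland *Musk*, *Chrne*, *Chrnd* and *Chrng* were within the MGN range, but at 4, 2, 0 and 0 reads they were at or near the floor and could not show a modest difference. Between the MGNP glands with the most and the fewest muscle transcripts, replicates 2 and 3, the ratio was 222 for the summed muscle markers, 97.9 for *Musk*, 7.53 for *Rapsn*, 3.31 for *Chrna1*, 2.70 for *Chrnb1* and 2.49 for *Ache*. *Ache* thus had the smallest ratio of the 5 genes that could be compared, although its glands were in the same order (2, 4, 1 and 3, from high to low) as the muscle list. *Chrnb1*, *Chrne*, *Chrnd*, *Musk* and *Rapsn* had this order too, and *Chrna1* had replicates 4 and 2 exchanged. *Chrnd* was at least 7.91-fold higher in replicate 2 than the floor of 3 reads in replicate 3, where it had 0 reads, and *Chrne* had 60 reads in replicate 2 and 2 in replicate 3. In MGN the order of *Ache* was 2, 4, 1 and 3, and that of the muscle list was 2, 1, 3 and 4.

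Over the 8 MGN and MGNP glands, Pearson's r of log2 values with *Ache* was 0.90 for *Chrna1*, 0.88 for *Rapsn*, 0.87 for *Chrnb1*, 0.86 for *Chrne*, 0.85 for *Chrnd*, 0.80 for *Musk* and 0.84 for the summed muscle markers (n = 8 glands). These are descriptions, since the gap between the 2 groups is part of every one of them and 3 glands hold most of the muscle transcripts. For each partner, r with *Ache* was also taken without the 2 glands farthest from that partner's own median. The glands left out could thus differ between partners. This r was 0.91 for *Chrna1*, 0.80 for *Rapsn*, 0.79 for *Chrnb1*, 0.67 for *Chrne* and 0.63 for *Chrnd*. It was 0.49 for *Musk* and 0.61 for the muscle markers. Among 14845 protein-coding genes, the 5 with a pattern most like *Ache* in these glands were *Tfeb* (r = 0.99), *Fam19a3* (0.98), *Slc44a2* (0.97), *Avil* (0.97) and *Mef2d* (0.97). In the same ranking *Chrna1* was at position 69, *Rapsn* at 113, *Chrnb1* at 186 and *Musk* at 534.

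Wild type and MGNP glands both exceeded MGN in *Ache*, and no gene of the 8 separated these groups. The log2 difference of MGNP from MGWT was -0.55 for *Ache* and -0.78 for *Chrnb1*, and it was 1.05 for *Chrna1*, 1.29 for *Rapsn*, 2.44 for *Chrne* and 3.47 for *Musk*. All 6 of these genes that passed the filter overlapped between the groups, while 26.5% of 19065 genes were higher in MGNP without overlap and 27.9% were lower. MGNP replicate 3 had 4.33 normalized counts of *Musk*, below the MGWT glands, and 2.17 of *Chrne*, within their range, so the higher MGNP means of both came from the other 3 glands. *Chrnd* was at least 8.93-fold higher on average in MGNP than the floor of 3 reads per library in MGWT. The ratio of *Ache* to *Chrna1* counts, in which gene length is the same in every library, had a median of 7.08 in MGWT (3.19 to 14.0), 1.99 in MGN (1.07 to 2.28) and 2.43 in MGNP (1.26 to 3.32). The ratio to *Rapsn* was 2.49 to 7.28 in MGWT, 0.842 to 2.59 in MGN and 0.817 to 2.48 in MGNP. The ratio of *Ache* to *Chrnb1* was 0.540 to 0.745 in MGNP, above its 0.168 to 0.416 in MGN, and 0.298 to 0.884 in MGWT.

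**Figure D3:**
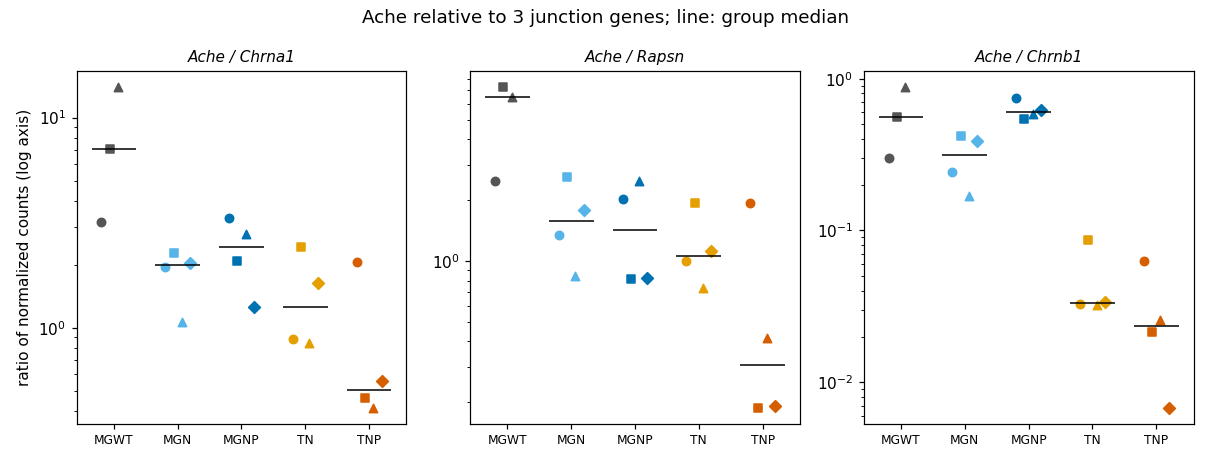
Ratio of the normalized count of *Ache* to that of *Chrna1*, *Rapsn* and *Chrnb1* (log axis) in each library by group, with a line at the group median. The median ratio to *Chrna1* was 7.08 in MGWT, 1.99 in MGN, 2.43 in MGNP, 1.26 in TN and 0.509 in TNP. The ranges of TN (0.846 to 2.42) and TNP (0.417 to 2.07) overlapped, and *Ache* had 5 or 6 reads in TNP replicates 2, 3 and 4.

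Tumors of N mice were then compared with glands of N mice. All TN tumors carried Fsp-Cre, whereas MGN replicates 2, 3 and 4 carried the conditional allele without Cre. Tissue and genotype can thus hardly be told apart in this comparison. *Chrnb1* was higher in TN, with a log2 difference of 1.69 (SE 0.23, adjusted p = 0.000554 by limma) and no overlap. *Ache* was lower by a log2 difference of -1.03 (SE 0.35, adjusted p = 0.0351 by limma), with TN replicate 2 at 30.6 just above MGN replicate 3 at 30.1. Its exact permutation p was 0.0571 (two-sided), and the call was lost in most alternative fits, for example with a pseudocount of 5 (-0.92, short of 2-fold) and without MGN replicate 2 (-0.87, adjusted p = 0.0993 by limma). *Rapsn* differed by -0.60 (SE 0.31, adjusted p = 0.134 by limma) and *Chrna1* by -0.61 (SE 0.34, adjusted p = 0.165 by limma). Of 17950 genes tested, 12.8% were called higher and 22.3% lower, which sets the 1 gene of 4 in each direction near the background. Higher values without overlap were found for 1 of the 4 genes and 22.7% of all genes, and lower values without overlap for 0 of the 4 and 26.4%. The summed luminal epithelium markers were 16535 to 29159 in MGN and 88211 to 171966 in TN, and the white adipocyte markers 196957 to 261911 in MGN and 400.4 to 4640.3 in TN, and their part in these differences was not tested. The muscle list spanned 0.00276% to 0.204% in TN, and TN replicate 3, with the most muscle transcripts, had the highest *Chrna1*, *Chrnb1*, *Musk* and *Rapsn* of its group but not the highest *Ache*.

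TNP and TN tumors did not differ by any call among the 8 genes. The log2 differences of TNP from TN were -1.06 for *Ache* (SE 0.55, adjusted p = 0.711 by limma), 0.27 for *Rapsn* (SE 0.40), -0.21 for *Chrna1* (SE 0.36) and -0.23 for *Chrnb1* (SE 0.40). With limma, 0 of these 4 had an unadjusted p under 0.05, and edgeR and DESeq2 also called 0 of them. Over 16638 genes limma called 0.0361% higher and 0.00601% lower in TNP. The 4 genes overlapped between the groups, whereas 2.64% of all genes were higher and 1.57% lower without overlap. *Ache* was at 6.24 to 7.32 in TNP replicates 2, 3 and 4, with 5 or 6 reads each, and these 3 tumors were below all 4 TN tumors while replicate 1 was above them. Without TNP replicate 1 the log2 difference was -1.62 (adjusted p = 0.735 by limma).

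Against the MGNP glands, the TNP tumors had lower *Ache*, with a log2 difference of -4.18 and means of 13.7 and 214. *Rapsn* differed by -2.57 and *Chrna1* by -2.56, also without overlap, and *Chrnb1* by 0.49 with overlap, so 3 of the 4 genes that passed were lower without overlap beside 27.4% of 17880 genes, and 0 were higher without overlap beside 25.2%. Within the 8 tumors, no relation of *Ache* with 4 other junction genes passed the threshold, each by an exact permutation test of Pearson's r with Benjamini-Hochberg adjustment (n = 8). The r was 0.27 for *Chrna1* (p = 0.514, adjusted p = 0.674, exact permutation), 0.17 for *Chrnb1* (p = 0.674, adjusted p = 0.674, exact permutation), -0.47 for *Rapsn* (p = 0.254, adjusted p = 0.508, exact permutation) and -0.60 for *Musk* (p = 0.120, adjusted p = 0.480, exact permutation). Spearman's rho was 0.36, 0.07, -0.33 and -0.46 in that order (p = 0.389, 0.882, 0.428 and 0.255 by exact permutation, adjusted p = 0.571, 0.882, 0.571 and 0.571). Without the 2 tumors farthest from the partner gene's own median, which could differ between partners, r became -0.17, 0.38, 0.22 and -0.87. *Ache* had 5 or 6 reads in 3 of the tumors and *Musk* 0 reads in 3 of them, so these values rest in part on the floor, and a relation is not excluded by 8 samples. The 5 genes most like *Ache* over the tumors, of 13788 ranked, were *Btaf1* (r = 0.98), *B130006D01Rik* (0.96), *Cdc37l1* (0.94), *Pprc1* (0.94) and *Ap5b1* (0.93). As the highest of 13788 r values over 8 tumors, 3 of them with 5 or 6 reads of *Ache*, these are descriptions only.

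**Figure D4:**
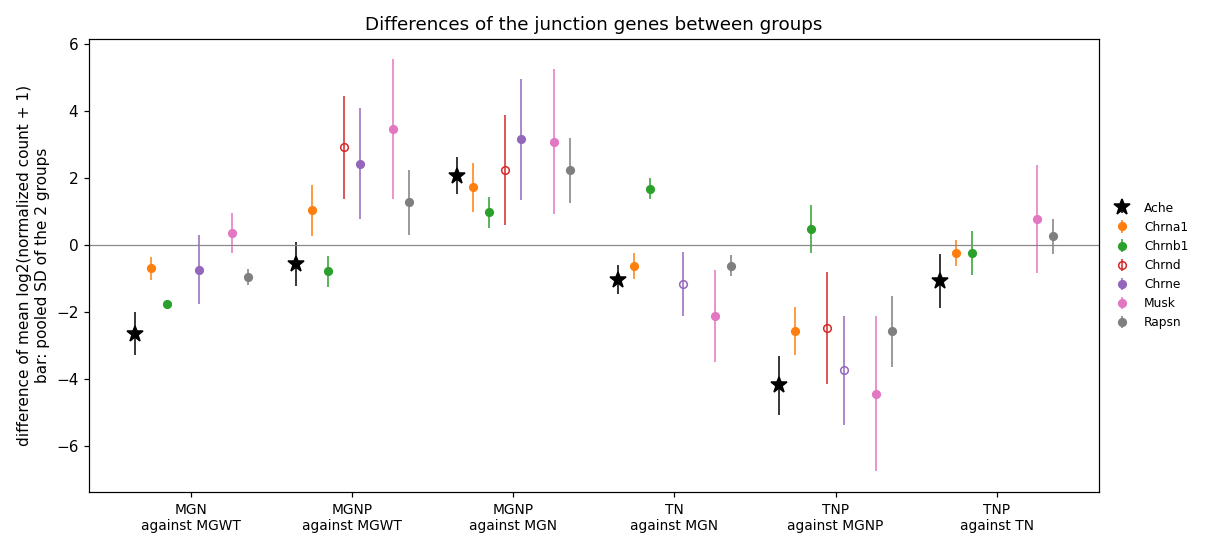
Difference of mean log2(normalized count + 1) between the groups of 6 comparisons, with a bar of 1 pooled SD, for each gene that was above the floor in at least 1 group. Open symbols mark differences where 1 group had at most 3 reads in every library, whose size depends on the pseudocount. *Ache* (star) was at -2.64 for MGN against MGWT, 2.08 for MGNP against MGN and -4.18 for TNP against MGNP.

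The wider junction was followed with a list of 42 genes, in the order of partners of the enzyme, nerve-side genes, agrin and neuregulin signalling, the scaffold and basal lamina, and myogenic factors. In MGN against MGWT 32 of the 42 passed the filter, 4 were called higher and 9 lower, beside 19.1% and 17.9% of all genes, with a median log2 difference of -0.30 against 0.02 over all genes. In TN against MGN 32 passed, 8 were called higher and 7 lower, beside 12.8% and 22.3%, with a median of 0.08 against -0.05. In TNP against TN 29 passed and limma called 0, as did edgeR and DESeq2, while 4 (*Erbb4*, *Etv5*, *Utrn* and *Col13a1*) had an unadjusted p under 0.05, beside 1210 of the 16638 genes tested. Of the 29, *Col13a1* was higher in TNP without overlap, beside 2.64% of all genes.

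Of the enzyme's partners, *Bche*, the related butyrylcholinesterase, moved opposite to *Ache* between MGN and MGWT. It had 115, 82.0 and 134 normalized counts in MGWT and 5166, 3246, 3722 and 3183 in MGN, a log2 difference of 5.10 (SE 0.22, adjusted p = 1.86e-06 by limma). *Colq*, the collagen tail that anchors the enzyme at the junction, was lower in TN than in MGN by -4.72 (SE 0.88, adjusted p = 0.00252 by limma) and had 25.4 to 195 normalized counts in MGN and 0 to 9.09 in TN. Its MGN and MGWT groups overlapped. *Prima1*, the membrane anchor of the enzyme, was named after its values were seen: it reached 98.5 and 34.9 in MGNP replicates 2 and 4, at most 20.7 in other glands and at most 1.17 in the tumors.

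Of the nerve-side genes, also named after their values were seen, *Slc18a3*, the vesicular acetylcholine transporter, had 0 reads in all 19 libraries, and *Chat*, which makes acetylcholine, had 1 read in all. *Slc5a7*, the choline transporter, had 604, 2562 and 1119 normalized counts in MGWT, 265, 187, 238 and 2.06 in MGN, and at most 13.6 in the tumors. Its log2 difference of MGN from MGWT was -3.95 (SE 1.502, adjusted p = 0.0501 by limma). Of the neuronal receptor subunits, *Chrna5* was higher in MGN than in MGWT (3.83, SE 0.52, adjusted p = 0.000432 by limma) and lower in TN than in MGN (-3.97, SE 0.52, adjusted p = 0.000480 by limma), at no more than 35.7 normalized counts in any library.

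Of the agrin and neuregulin genes, *Agrn*, *Lrp4* and *Dok7*, which act with MuSK, were called lower in MGN than in MGWT. *Agrn* fell from a mean of 12834 to 3275 (-1.99, SE 0.16, adjusted p = 3.56e-05 by limma), *Lrp4*, named after its values were seen, from 1887 to 597 (-1.69, SE 0.19, adjusted p = 0.000174 by limma) and *Dok7*, the adaptor that activates MuSK, from 49.0 to 6.79 (-2.94, SE 0.59, adjusted p = 0.00315 by limma). *Nrg1* (-2.51), *Erbb3* (-2.23) and the basal lamina chain *Lama5* (-2.32) also fell, whereas *Lama4* (3.04) and *Nid2* (1.89) rose, all called by limma. In TN against MGN *Etv5*, an ETS factor, rose by 3.65, *Erbb3* by 3.05, *Dok7* by 2.70, *Nrg1* by 2.15 and *Dtna*, a scaffold gene, by 1.67, while *Mef2c* fell by 2.27, *Col13a1* by 1.97 and *Nid2* by 1.21 on the log2 scale, all called by limma. The calls of *Dok7* (adjusted p = 0.0392 by limma) and *Nrg1* (adjusted p = 0.0482 by limma) in TN were each lost in 6 of the 8 fits that left out 1 sample. *Dok7* had 6.32 to 134 and *Nrg1* 44.3 to 551 normalized counts in TN.

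The muscle-restricted genes of the list, named after their values were seen, were highest in MGNP replicates 1, 2 and 4. *Scn4a*, the muscle sodium channel, had 1559, 10743, 209 and 6959 normalized counts in MGNP, against 46.0 to 72.6 in MGN and 20.01 to 67.4 in MGWT, so replicate 3 was above every MGN and MGWT gland as well. *Myod1*, a myogenic factor, had 21.9, 333, 0 and 141 in MGNP and at most 2.07 in MGN and MGWT. *Myog* had 20.03, 204, 2.17 and 163 in MGNP and at most 1.27 in MGN and MGWT. In MGNP against MGN as a whole, 4 of 32 genes of the list that passed (*Chrna5*, *Lama4*, *Sntb2* and *Utrn*) were lower without overlap, beside 4.15% of all genes.

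**Figure D5:**
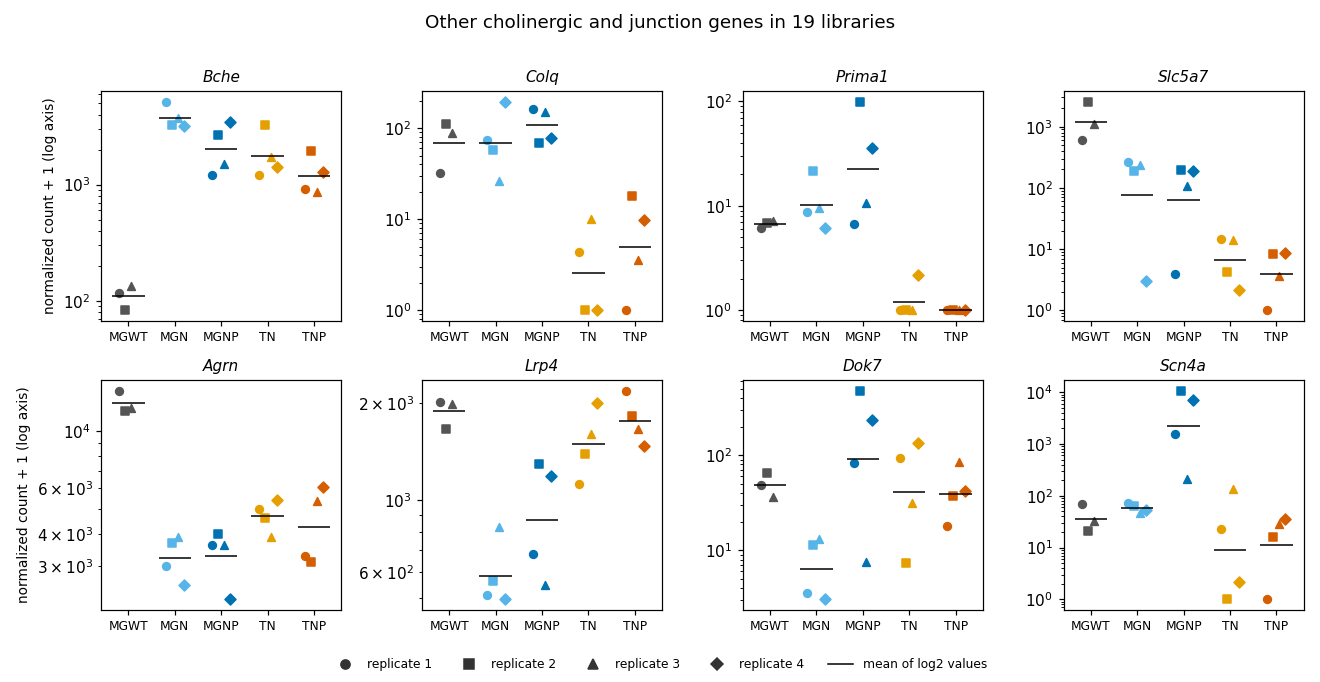
Normalized counts plus 1 (log axis) of 8 other cholinergic and junction genes in each library, by group, with a line at the mean of the log2 values. *Bche* was at 82.0 to 134 in MGWT and 3183 to 5166 in MGN, the reverse of *Ache*, and *Scn4a* was at 209 to 10743 in MGNP.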

How the data were processed

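RNA from glands and tumors was sequenced as 75-base read pairs and aligned to GRCm38 with TopHat2 (2.1.1) and Bowtie2 per the study's methods and the submitters' processing notes. The methods name an mRNA kit and the labels a total RNA kit. The counting tool, annotation and strand setting are not given in the sources used here. The authors deposited a signal table of read counts per gene divided by a size factor of each library (0.701 to 2.34), 1 column a library. Whole reads were recovered for 100% of values within 0.05 reads. In TN replicate 3 the factor was so near 1 that scaling could not be checked. Intervals of counting error were not used, and the floor was 3 reads per library.

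Symbols, exon lengths and positions came from GENCODE M21 (97.97% of identifiers matched). Log2(normalized count + 1) was fitted with limma (3.58.1, trend) on the samples of each pair of groups, for MGN against MGWT, TN against MGN and TNP against TN, over all genes that reached 10 normalized counts in 3 samples or more for MGWT and in 4 or more otherwise. Adjustment was by Benjamini-Hochberg, and calls needed an adjusted p under 0.05 and at least 2-fold. The model was tested on simulated data. Alternatives were pseudocounts of 0.5 and 5, TMM scaling, no filter, a mean of at least 50, no fold threshold, all groups in 1 fit, a replicate block, TNP replicates 1 and 2 averaged, each sample left out, and edgeR (4.0.16) and DESeq2 (1.42.0) on recovered reads.

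The 8 genes were named everywhere. Of the other junction genes, up to 5 rises and 5 falls per tested comparison were to be named, and of genes most like Ache the 5 with the highest r in glands and in tumors. The genes and lists were chosen with earlier results of these data known. The numbering did not pair samples: correlations of same-numbered deviations were -0.14 to -0.02 for MGN and MGWT, -0.09 to 0.07 for TN and MGN, and -0.11 to -0.01 for TNP and TN. The single-gene result of 1 gene of the junction list is not reported here.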

Additional observations from a re-analysis of the deposited data

Results flagged for a closer look

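In the TNP tumors the highest *Ache* value, 34.8 normalized counts in replicate 1, stood far from the other 3 tumors, with a gap of 0.962 of the range of the group. In the TN tumors the highest *Musk* value, 12.1 in replicate 3, had a gap of 0.904 of the range, in the tumor with the largest share of skeletal muscle transcripts of its group (0.204%). A gap above Dixon's critical value for 4 samples was marked, 23 gene and group pairs were examined, and chance marks about 1 pair in 20.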

How the results depend on the processing

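The call of *Ache* as lower in TN than in MGN was lost in 11 fits. The log2 difference was -0.92 with a pseudocount of 5, -0.98 with TMM scaling, -1.03 without a filter (adjusted p = 0.0631 by limma) and -1.03 with all 5 groups in a single fit (adjusted p = 0.0768 by limma). It ranged from -1.24 to -0.87 with a sample left out. The number of the 8 genes called lower in TN was then 0 with a pseudocount of 5, 0 with TMM scaling, 0 without a filter, 0 with a filter at a mean of 50 (*Ache* is then not tested), 0 with all groups in a single fit, and 0 to 1 with a sample left out. The call held with a pseudocount of 0.5, edgeR and DESeq2.

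With the replicate number as a block, *Ache* in TN against MGN stayed at -1.03 (adjusted p = 0.0635 by limma) and the count of genes called lower was 0. The numbers do not pair the samples, since 0, 2 and 0 samples correlated best with their own number in the comparisons of MGN with MGWT, TN with MGN and TNP with TN. The block also lost the call of *Dok7* in TN against MGN (2.70, adjusted p = 0.0861) and gave *Rapsn* in MGN against MGWT a call (-1.004, adjusted p = 0.0322).

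Without a fold threshold, 8 genes of the junction list were higher in MGN than in MGWT instead of 4. In TNP against TN, 0 to 1 were called higher with a sample left out. *Chrnb1* in TNP against TN turned to 0.059 without TNP replicate 3, the highest of a range that began at -0.56. The 2 calls of *Ache* and *Chrnb1* in MGN against MGWT held under every alternative run, with *Ache* from -3.06 to -2.35 with a sample left out. *Ache* in TNP rests on 5 or 6 reads in 3 of 4 tumors, and *Musk*, *Chrne*, *Chrnd* and *Chrng* were below the filter in most comparisons, so differences in them were not detectable at this depth outside MGNP.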
